A study of Homo sapiens with 2 samples.

Results

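The innate sensors and their adaptors are the receptors with which cells detect microbial molecules and foreign or misplaced nucleic acid, together with the proteins that carry the signal to the transcription factor NF-kB. They were taken as a list of 40 genes: Toll-like receptors and their co-receptor, NOD-like receptors, cytosolic nucleic acid sensors, adaptors, kinases, and NF-kB subunits with an inhibitor. Of these, 35 had a probe set annotated to their symbol alone, under the current or an older name (DDX58 is now RIGI), out of 18404 genes so measured. TLR5, TLR10 and IRAK4 were not analysed here, and TICAM2 and NLRP1 had only probe sets annotated to several symbols. The samples were HL-60 cells, an established line from a human promyelocytic leukaemia, of wild-type genotype and with no treatment named in the labels, grown with 10% serum. A single group of 2 Affymetrix Human Gene 1.0 ST arrays, labelled replicates 1 and 2, was available, so no genotype or treatment is compared and no test was possible. Whether the replicates were separate cultures is not stated, so their spread may be technical, and the values describe this line and no primary cell. The study concerned DNMT1, the maintenance DNA methyltransferase, and how its binding of RNA relates to methylation and expression.

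Toll-like receptors span the plasma membrane or endosomal membrane and signal through MyD88 or TRIF to IRAK kinases, TRAF ubiquitin ligases and the IKK complex, which releases NF-kB from its inhibitor. NOD-like receptors act in the cytosol, some by activating NF-kB and others by assembling inflammasomes, in which the adaptor ASC recruits caspase-1. RIG-I and MDA5 recognise viral RNA and signal through MAVS on mitochondria to TBK1, which activates interferon regulatory factors. Mature neutrophils and monocytes use many of these receptors, while promyelocytes, the stage HL-60 resembles, are earlier precursors.

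Values are signals made by the authors with RMA and taken to be log2. They are given as the value on each array or as mean ± SD over the 2 arrays (n = 2). All 35 genes had 1 probe set each. Over all genes the difference between the arrays corresponds to an SD of 0.28 per array, a better guide to error than the SD of 1 gene, since 962 genes had the same value on both arrays. A gene was counted as above background where it exceeded, on both arrays, the 95th percentile of 359 olfactory receptor genes (2.98 on replicate 1 and 2.88 on replicate 2). A second, higher threshold came from 115 genes of other tissue-restricted families (5.41 and 5.23). Probes differ in affinity, so signals of different genes are not relative transcript amounts, and the number of arrays limits the precision.

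Of the 35 sensor and adaptor genes, 20 (57.1%) were above the olfactory threshold, where 55.8% of all genes were, so the list as a whole lay near the background share. RELA and REL, both NF-kB subunits, exceeded the second threshold (5.71% of the list, against 17.0% of all genes). The median signal was 3.47 over the list and 3.33 over all genes. The list divided by role. Of 17 receptors and sensors, the Toll-like co-receptor LY96 included, 4 were above the olfactory threshold (TLR3, TLR4, NOD1 and IFIH1), with a median signal of 2.52. Of 18 adaptors, kinases, ubiquitin ligases, NF-kB subunits and the inhibitor gene NFKBIA, 16 were above it, with a median of 4.03. The exceptions were IRAK2 and NFKB2, each within 0.28 of the threshold on both arrays. This division into sensors and signalling genes was drawn after the values were seen and has no test. For 8 of the 35 genes the signal lay within 0.28 of the olfactory threshold on at least 1 array, so their side of it is uncertain. The arrays read bulk RNA, in which few cells with much transcript and many cells with little cannot be told apart.

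**Figure D1:**
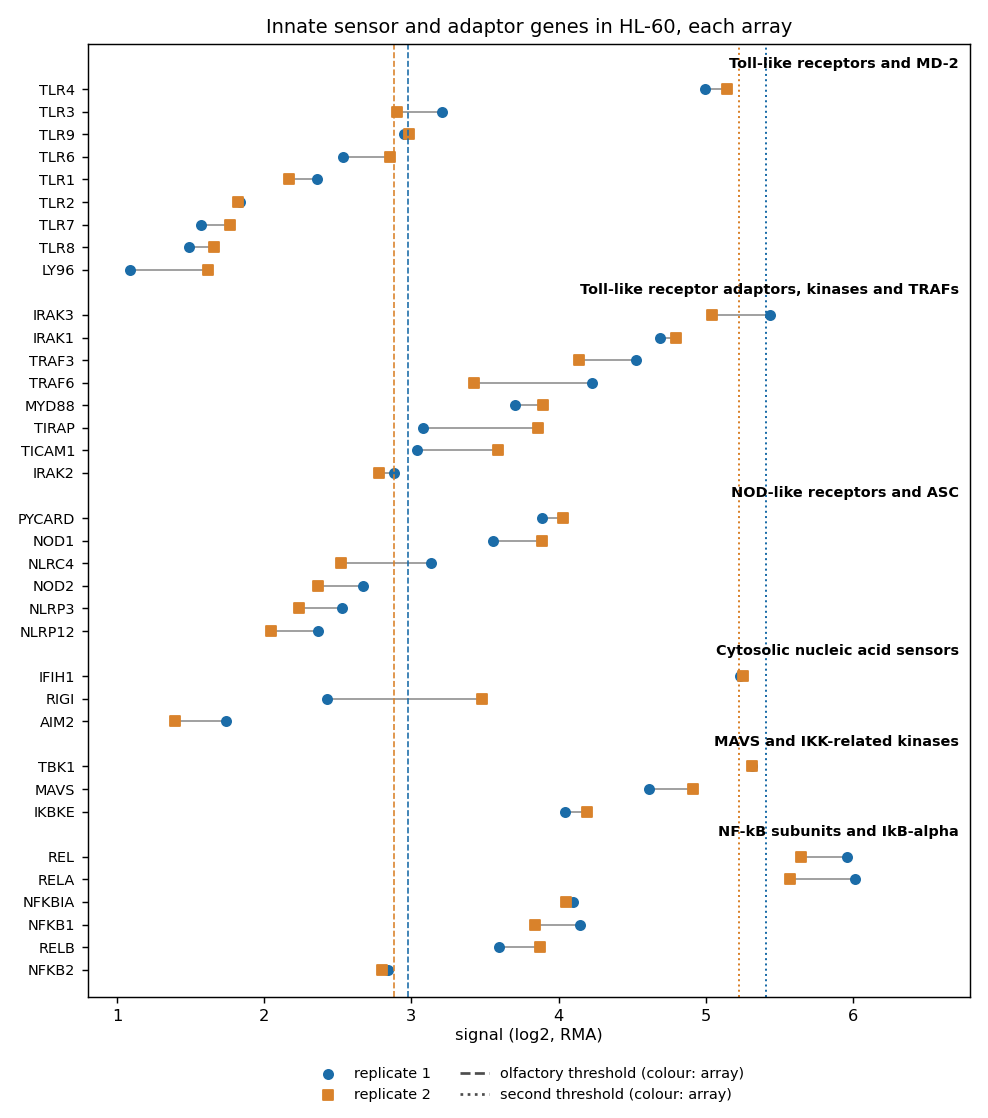
Log2 RMA signal (x axis) of the 35 genes (rows, by role) on replicate 1 (circles) and replicate 2 (squares), with a line joining the arrays, and the olfactory (dashed) and second (dotted) thresholds of each array in its colour. Most receptor genes lie left of the dashed lines and most adaptor, kinase and NF-kB genes right of them, and the circle of TBK1 is hidden because both arrays read 5.32.

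CpG sites are where DNMT1 maintains methylation, and methylation of CpG-rich promoters accompanies silencing, so the promoter sequences of the genes were examined for CpG content. RefSeq promoter windows (GRCh38.p14, 250 bases before to 50 after the start) matched 30 of the 35 genes, with 37 windows. Methylation itself was not measured in these data. A promoter was called CpG-rich where at least 1 window had a ratio of observed to expected CpG of at least 0.6 and a GC content of at least 50%. The 250 bases before the start are shown, 5′ to 3′ on the gene's strand with each CpG in capitals, for genes that show how promoter and signal combined. TRAF3 (chr14:102777199-102777448, plus strand) and IRAK1 (chrX:154019903-154020152, minus strand) are CpG-rich genes above background, TLR2 (chr4:153684030-153684279, plus strand) is CpG-rich and not above it, and RIGI (chr9:32526197-32526446, minus strand) is CpG-rich and passed on replicate 2 only. TLR4 (chr9:117704153-117704402, plus strand) and IKBKE (chr1:206470226-206470475, plus strand) are CpG-poor genes above background, and TLR8 (chrX:12906370-12906619, plus strand) is CpG-poor and not above it.
TRAF3: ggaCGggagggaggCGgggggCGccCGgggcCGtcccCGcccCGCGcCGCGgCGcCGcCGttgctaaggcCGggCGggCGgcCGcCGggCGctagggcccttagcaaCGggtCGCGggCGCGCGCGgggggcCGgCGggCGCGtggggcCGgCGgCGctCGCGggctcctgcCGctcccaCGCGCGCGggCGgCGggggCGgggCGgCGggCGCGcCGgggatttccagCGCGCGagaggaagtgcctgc
IRAK1: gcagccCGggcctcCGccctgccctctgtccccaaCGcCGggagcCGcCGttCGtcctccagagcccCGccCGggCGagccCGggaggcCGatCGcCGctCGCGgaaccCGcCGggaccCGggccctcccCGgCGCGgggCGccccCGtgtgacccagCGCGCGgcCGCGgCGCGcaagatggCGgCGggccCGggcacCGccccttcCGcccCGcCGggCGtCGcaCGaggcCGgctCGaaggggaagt
TLR2: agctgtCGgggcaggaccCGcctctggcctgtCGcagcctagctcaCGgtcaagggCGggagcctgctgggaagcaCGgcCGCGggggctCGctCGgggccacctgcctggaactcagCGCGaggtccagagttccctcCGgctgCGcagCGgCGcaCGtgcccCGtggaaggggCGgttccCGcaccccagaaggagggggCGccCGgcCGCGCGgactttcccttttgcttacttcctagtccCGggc
RIGI: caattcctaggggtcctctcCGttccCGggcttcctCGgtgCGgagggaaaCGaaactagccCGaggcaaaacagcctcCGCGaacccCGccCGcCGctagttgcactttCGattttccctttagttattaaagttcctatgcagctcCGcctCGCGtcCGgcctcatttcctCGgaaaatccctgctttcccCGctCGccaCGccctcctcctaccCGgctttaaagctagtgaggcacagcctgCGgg
TLR4: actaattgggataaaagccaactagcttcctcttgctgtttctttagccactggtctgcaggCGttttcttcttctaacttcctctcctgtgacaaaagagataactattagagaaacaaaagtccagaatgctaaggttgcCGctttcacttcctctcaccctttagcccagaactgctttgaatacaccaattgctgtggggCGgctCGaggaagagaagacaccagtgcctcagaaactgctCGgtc
IKBKE: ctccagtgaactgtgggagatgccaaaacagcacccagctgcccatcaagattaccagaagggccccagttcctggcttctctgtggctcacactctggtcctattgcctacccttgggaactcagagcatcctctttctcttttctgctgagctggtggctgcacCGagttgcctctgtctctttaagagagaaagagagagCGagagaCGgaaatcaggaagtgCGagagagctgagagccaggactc
TLR8: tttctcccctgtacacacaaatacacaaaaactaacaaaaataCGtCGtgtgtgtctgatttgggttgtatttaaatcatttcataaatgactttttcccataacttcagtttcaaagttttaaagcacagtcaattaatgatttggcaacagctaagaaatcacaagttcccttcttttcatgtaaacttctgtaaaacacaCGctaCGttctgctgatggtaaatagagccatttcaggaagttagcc

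The sequences differ plainly to the eye: the stretch shown holds 51 CpG sites for TRAF3 and 43 for IRAK1, but 5 for TLR4 and 4 each for IKBKE and TLR8. TLR2, with 26 sites, and RIGI, with 22, lie between by count. By ratio of observed to expected CpG over these bases, RIGI (1.05) exceeded IRAK1 (1.02). TRAF3 and IRAK1 had the windows with the most sites of the list (61 and 52). Site number did not order the CpG-rich genes by signal. IFIH1 (12 sites before the start) and NFKBIA (15), both above background, held fewer than TLR2 and RIGI. Of 19 genes with a CpG-rich promoter, 15 (78.9%) were above the olfactory threshold, where 70.5% of all genes with such a promoter were. Of 11 genes with a CpG-poor promoter, 3 (27.3%) were above it, where 28.2% of all such genes were. The shares of the list thus lay near those of all genes in the same promoter class. The 4 CpG-rich genes not above background were TLR2, IRAK2, NFKB2 and RIGI, and the 3 CpG-poor genes above it were TLR3, TLR4 and IKBKE. Of these, IRAK2, NFKB2 and TLR3 lay within the SD per array of the threshold on both arrays.

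Promoter class went with role. Of 16 signalling genes with a promoter window, 15 were CpG-rich, with IKBKE as the exception, and of 14 receptors and sensors, 4 were (TLR2, NOD1, RIGI and IFIH1). Among the CpG-rich genes, 13 of 15 signalling genes and 2 of 4 sensors were above background. Among the CpG-poor genes, the single signalling gene and 2 of 10 sensors were. With so few sensors in the CpG-rich class, role and promoter class cannot be told apart in this list. By ratio, PYCARD (0.60) and IFIH1 (0.63) were the CpG-rich genes closest to the limit, and TLR6 and TLR8 (both 0.56) the CpG-poor genes closest to it. The GC content of TLR6 (34.7%) and TLR8 (38.3%) was well below the required 50%, while that of IFIH1 was 50.7%.

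**Figure D2:**
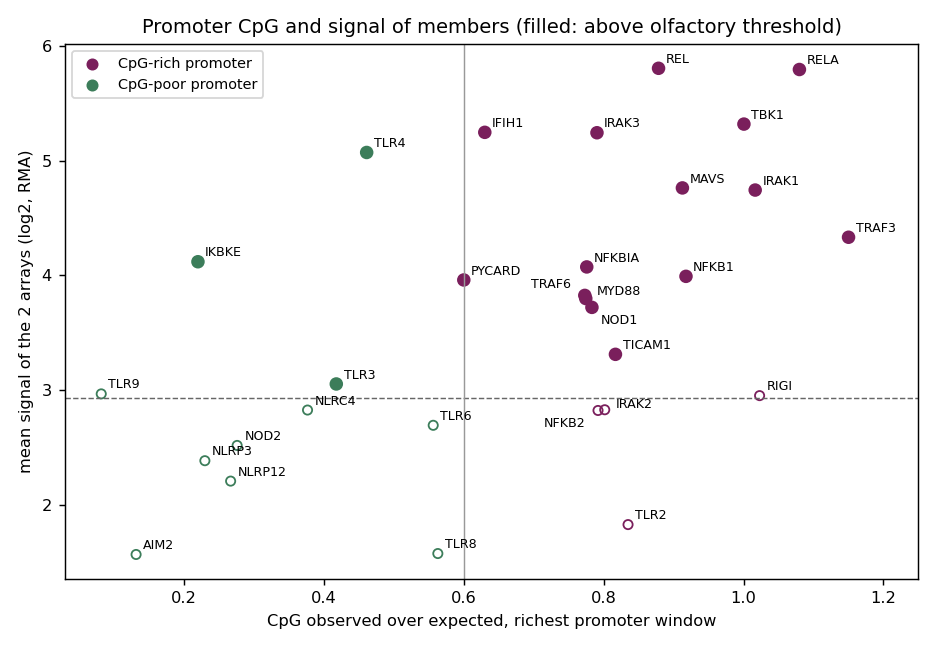
Mean log2 RMA signal of the 2 arrays (y axis) against the observed over expected CpG ratio of the CpG-richest RefSeq promoter window (x axis) for the 30 genes with a window. Filled points passed the olfactory threshold on each array, the dashed line is the mean of the thresholds of the 2 arrays and the vertical line marks the limit of 0.6. Filled points number 15 of 19 among CpG-rich and 3 of 11 among CpG-poor promoters.

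Among 9 measured genes of the Toll-like receptor group, TLR4 and TLR3 were above the olfactory threshold and none reached the second on both arrays. Of all genes 55.8% and 17.0% did. TLR4, the receptor for bacterial lipopolysaccharide, read 5.00 on replicate 1 and 5.15 on replicate 2, 2.01 and 2.27 above the threshold. LY96 encodes MD-2, the protein that binds lipopolysaccharide together with TLR4. It read 1.09 and 1.62, below the threshold on both arrays. CD14, which hands lipopolysaccharide to that complex, read 2.59 and 2.23, also below. The receptor gene was thus above background and these partner genes were not.

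TLR3, an endosomal receptor for double-stranded RNA, read 3.21 and 2.90 and passed on replicate 2 by 0.02. TLR9, the endosomal receptor for unmethylated CpG DNA, read 2.95 and 2.99 and passed on replicate 2 only. Both genes sat at the threshold, where the SD of 0.28 per array does not separate them from background. TLR1, TLR2 and TLR6 encode the receptors for bacterial lipoproteins, in which TLR2 pairs with either of the others. TLR2 read 1.84 and 1.82, TLR1 2.36 and 2.17, and TLR6 2.54 and 2.85. All 3 were below the threshold on both arrays, TLR6 by only 0.03 on replicate 2, inside the SD per array. TLR1 and TLR6 are close paralogues whose probes may not separate them fully. The single-stranded RNA receptors were also below it, with TLR7 at 1.57 and 1.77 and TLR8 at 1.49 and 1.66.

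The adaptors and kinases below these receptors were mostly above background, in 7 of 8 cases, beside 55.8% of all genes. MYD88, the adaptor of most Toll-like receptors, read 3.70 on replicate 1 and 3.89 on replicate 2. TIRAP, which brings MyD88 to TLR2 and TLR4, read 3.08 and 3.86. TICAM1, which encodes TRIF, the adaptor of TLR3, read 3.04 and 3.59. The last 2 cleared the threshold on replicate 1 by 0.09 and 0.05, and MYD88 by 0.72. IRAK1, a kinase recruited by MyD88, read 4.69 and 4.80. IRAK3, which encodes an IRAK family member that restrains the pathway, read 5.44 and 5.05, above the second threshold on replicate 1 only. IRAK2, a kinase of the same family, read 2.88 and 2.78 and was the member of this group not above background, lying 0.10 below on each array. The ubiquitin ligase TRAF6, which links IRAK kinases to TAK1, read 4.23 and 3.42, and TRAF3, which acts in the interferon branch, read 4.53 and 4.14.

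Of 6 measured genes of the NOD-like receptor group, NOD1 and PYCARD were above the olfactory threshold, which 55.8% of all genes passed. NOD1, a sensor of peptidoglycan fragments, read 3.56 and 3.89. NOD2, a related sensor of muramyl dipeptide, read 2.67 and 2.36 and was below on both arrays. PYCARD, which encodes the inflammasome adaptor ASC, read 3.89 and 4.03. None of the inflammasome receptors NLRP3, NLRP12 and NLRC4 was above background on both arrays. NLRP3, a sensor of cell damage, read 2.53 and 2.24, and NLRP12, a myeloid NOD-like receptor, read 2.37 and 2.05, both below the threshold. NLRC4, which works with NAIP proteins on flagellin, read 3.13 and 2.52, above the threshold on replicate 1 only.

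Of the 3 cytosolic nucleic acid sensors, IFIH1 was above background on both arrays, RIGI on replicate 2 only and AIM2 on neither. IFIH1, which encodes the long double-stranded RNA sensor MDA5, read 5.24 and 5.26, above the second threshold on replicate 2 only. RIGI, which encodes the RIG-I sensor of short RNA with a triphosphate end, read 2.42 and 3.48. AIM2, a DNA sensor that forms an inflammasome with ASC, read 1.74 and 1.40. The genes acting after the RNA sensors all passed. MAVS read 4.61 and 4.91. TBK1 read 5.32 on both arrays, above the second threshold on replicate 2 only. IKBKE, which encodes the kinase related to TBK1, read 4.05 and 4.19.

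The 250 bases before the start of IFIH1 (chr2:162318685-162318934, minus strand) are shown because this gene, itself induced by interferon, was the cytosolic sensor above background on both arrays. Capitals mark matches to GAAANNGAAA on either strand, the paired GAAA core of interferon-stimulated response elements.
IFIH1: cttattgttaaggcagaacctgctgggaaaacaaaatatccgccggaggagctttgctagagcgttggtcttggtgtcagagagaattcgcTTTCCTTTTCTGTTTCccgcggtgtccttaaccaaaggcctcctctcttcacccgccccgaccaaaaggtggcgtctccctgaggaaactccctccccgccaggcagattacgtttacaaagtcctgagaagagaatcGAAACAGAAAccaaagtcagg

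The stretch held 3 matches, of which 2 overlap, and the match nearest to the start began 21 bases before it. The motif was found in 5 of the 37 windows of the list (13.5%), those of AIM2, IFIH1, MYD88, TLR3 and RELA, and in 3.57% of all 35116 RefSeq windows. It fell in 2 of 22 CpG-rich and 3 of 15 CpG-poor windows of the list, beside 1.99% and 4.97% of all such windows. Of the genes with a match, AIM2 was below background on both arrays and the others were above it, TLR3 narrowly. Such matches are letters in a window and do not show binding.

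Of the 6 NF-kB genes, 5 exceeded the olfactory threshold and 2 of these the second, beside 55.8% and 17.0% of all genes. RELA, the most widely used activating subunit, read 6.01 on replicate 1 and 5.58 on replicate 2. REL, a subunit used mainly in blood cells, read 5.96 and 5.65. These were the only genes of the list above the second threshold on both arrays. NFKB1, whose product is processed to the DNA-binding partner of RELA, read 4.14 and 3.84. RELB and NFKB2 form the non-canonical dimer. RELB read 3.60 and 3.88, while NFKB2 read 2.84 and 2.80, below the threshold on both arrays. Its margins (-0.14 and -0.08) lay inside the SD of 0.28 per array, so its side of the threshold is uncertain. NFKBIA encodes IkB-alpha, the inhibitor that NF-kB itself induces, and read 4.10 and 4.05.

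The 250 bases before the start of NFKBIA (chr14:35404750-35404999, minus strand) are shown because the gene is a textbook NF-kB target. Capitals mark the match to the kappa-B consensus, searched on both strands.
NFKBIA: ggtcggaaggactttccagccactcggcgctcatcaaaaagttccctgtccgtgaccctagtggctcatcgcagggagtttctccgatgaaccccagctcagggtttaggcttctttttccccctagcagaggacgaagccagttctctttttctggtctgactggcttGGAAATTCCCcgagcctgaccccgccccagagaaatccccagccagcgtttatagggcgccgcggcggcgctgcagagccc

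The match began 81 bases before the start. A kappa-B match was present in 10 of the 37 windows of the list (27.0%) and in 11.3% of all RefSeq windows. It fell in 9 genes, namely NFKBIA, NFKB1, NFKB2, REL, RIGI, IFIH1, IRAK1, TRAF3 and TICAM1. All 10 windows were CpG-rich, 45.5% of the 22 CpG-rich windows of the list, where 14.7% of all CpG-rich windows held a match. These shares describe letters only, and several genes have more than 1 window. Of the genes with a match, NFKB2 and RIGI were not above background on both arrays.

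Other genes of the same pathways were described from 7 lists, of which 81 of 88 genes were measured. In all, 51 of them exceeded the first threshold and 12 the second, beside the 55.8% and 17.0% of all genes. Among 9 genes of TAK1 and IKK signalling, 7 were above the olfactory threshold. The kinase gene MAP3K7, which encodes TAK1, read 7.23 and 7.43, and the ubiquitin-conjugating enzyme genes UBE2V1 (9.48 ± 0.23) and UBE2N (5.69 ± 0.07) also exceeded the second threshold. The IKK kinase subunit CHUK read 5.12 and 4.62. IKBKG, the regulatory IKK subunit, was the lowest of the list at 2.59 and 1.97, and it has a nearly identical pseudogene that makes its signal uncertain.

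Of 11 Toll-like receptor accessory genes 5 (45.5%) passed the olfactory threshold, beside 55.8% of all genes. The folding factors HSP90B1 (9.82 on both arrays) and CNPY3 (5.96 ± 0.10), which Toll-like receptors need to reach their membranes, exceeded the second threshold. LY86, the partner of the receptor-like protein CD180, was the lowest at 1.44 ± 0.09. The inhibitors and feedback regulators of NF-kB passed in 7 of 9 cases. Its highest members were TNIP1 (5.35 ± 0.29) and TNIP2 (4.36 ± 0.18), TNFAIP3 read 4.30 ± 0.05, and NFKBIZ was the lowest at 1.94 ± 0.08.

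The NF-kB target genes stood at the other end, with 3 of 14 above the olfactory threshold and a median of 2.79. That threshold was passed by 55.8% of all genes. The mitochondrial superoxide dismutase gene SOD2 read 5.58 and 5.42, above both thresholds. The chemokine genes CXCL8 (3.60 ± 0.17) and CXCL1 (3.49 ± 0.11) followed. IL6 was the lowest at 1.69 and 1.21. A further 4 target genes passed on 1 array only, so that the count was 5 on each array alone. Of the 14, 2 differed by over 1 between the arrays, where 1.96% of all genes did. These were CCL20 (2.10 on replicate 1 and 4.09 on replicate 2) and CCL3 (3.77 and 2.73), each below the threshold on its lower array. Of the 6 genes for NF-kB subunits and IkB-alpha 5 were above background, as given above. Among these 5 is NFKBIA (4.10 and 4.05), itself an NF-kB target, so the target list does not hold every target. Its low share is that of the genes chosen for it, and the difference between these lists was not tested.

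Of 14 inflammasome partners and further NOD-like receptor genes, 12 were above the olfactory threshold, beside 55.8% of all genes. CASP4, a caspase that binds lipopolysaccharide in the cytosol, read 5.46 and 5.45, above both thresholds, and RIPK2, the kinase of NOD1 and NOD2, read 5.19 ± 0.55. CASP1, the inflammasome protease, read 4.61 and 3.83. CASP5 was the lowest of the list at 1.72 on both arrays. The caspases named are close paralogues and NAIP has near-identical copies, which leaves those signals uncertain if probes match several copies.

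Of 13 genes of the cGAS-STING and RIG-I pathways 10 passed, 4 of them above the second threshold, beside 55.8% and 17.0% of all genes. These 4 were TRIM25 (6.76 ± 0.09), a ubiquitin ligase that acts on RIG-I, the RNA editing enzyme ADAR (6.45 ± 0.22), the RNA-activated kinase gene EIF2AK2 (6.43 ± 0.34) and CGAS (5.67 ± 0.13), which encodes the cytosolic DNA sensor. STING1, its partner, read 3.61 ± 0.11, and the DNA-binding protein gene IFI16 was the lowest at 2.34 ± 0.26. Of 11 interferon regulatory factor and interferon signalling genes 7 (63.6%) passed, near the share of all genes. IRF2 (6.11 ± 0.23) exceeded the second threshold. IRF3, the factor activated by TBK1, read 5.00 ± 0.11, and IRF8 was the lowest at 1.62 ± 0.04.

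**Figure D3:**
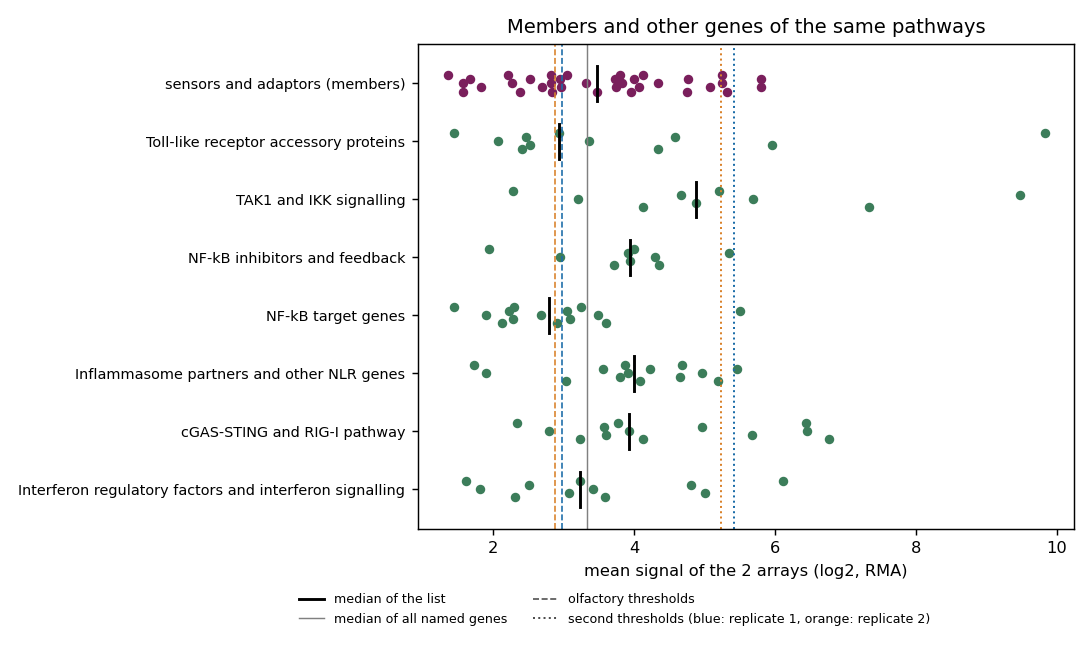
Mean log2 RMA signal of the 2 arrays (x axis) for the 35 sensor and adaptor genes (top row) and for the measured genes of 7 pathway lists, 1 point per gene, with list medians (black bars), the median of all named genes (grey line, 3.33) and the thresholds of each array. The list of TAK1 and IKK signalling has the highest median (4.87) and the NF-kB target genes the lowest (2.79).

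The label of the cells was checked against markers. All 6 measured promyelocyte markers were above the olfactory threshold, led by the granule genes CTSG (8.12 ± 1.24) and MPO (7.84 ± 0.52), with PRTN3 (7.21 ± 1.04) also above the second and AZU1 lowest (3.10 ± 0.13). That threshold was also passed by 55.8% of all genes and by 4 of 5 B cell markers, so passing it does not by itself identify these cells. Above the second threshold were 3 of the 6 promyelocyte markers and 0 of the 5 B cell markers, beside 17.0% of all genes. The lysosomal gene CD68 (4.35 ± 0.35) was above background as 1 of 7 monocyte and macrophage markers. FCN1 (2.86 ± 0.06), CD14 (2.41 ± 0.25) and MSR1 (1.27 ± 0.10) did not.

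Between the arrays, 1 of the 35 sensor and adaptor genes had a log2 difference over 1 in size, where 1.96% of all genes did. It was RIGI, with 2.42 on replicate 1 and 3.48 on replicate 2, a replicate 1 minus replicate 2 difference of -1.06, or 2.08-fold; 1.08% of all genes were higher on replicate 2 by over 1. Its signal on replicate 1 lay 0.56 below the olfactory threshold, so the size of this difference rests on a value not above background. In all, 17 genes were higher on replicate 1 (52.6% of all genes were), 17 on replicate 2 (42.1% of all genes) and TBK1 was equal, with a median difference of 0.00 over the list and 0.04 over all genes. The next largest differences were those of TRAF6 (0.81), TIRAP (-0.78), NLRC4 (0.61), TICAM1 (-0.55) and LY96 (-0.53), replicate 1 minus replicate 2. The SD of the difference was 0.39 over the list and 0.39 over all genes. IFIH1 (-0.02) and DHX58 (-0.18), a relative of both that was named after its values were seen, did not share the size of the RIGI difference. DHX58 read 2.70 on replicate 1, below the olfactory threshold, and 2.88 on replicate 2, at it, so its signal may be too low to show a difference. Of the 13 genes of the cGAS-STING and RIG-I list, 9 were higher on replicate 2 and 4 on replicate 1. Their median difference was -0.18 and the largest was -0.81, for RNF135, so no gene of that list differed by over 1. A common origin of these differences was not tested. The promyelocyte markers also differed between the arrays, 3 of 6 by over 1, where 1.96% of all genes did. These were CTSG (8.99 on replicate 1 and 7.24 on replicate 2), PRTN3 (7.95 and 6.47) and MS4A3 (5.98 and 4.88). In all, 4 of the 6 markers were higher on replicate 1, while ELANE (-0.24) and AZU1 (-0.18) were higher on replicate 2. Their part in the differences of the sensor genes was not tested. With 1 array on each side, none of these differences has a replicate check.

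**Figure D4:**
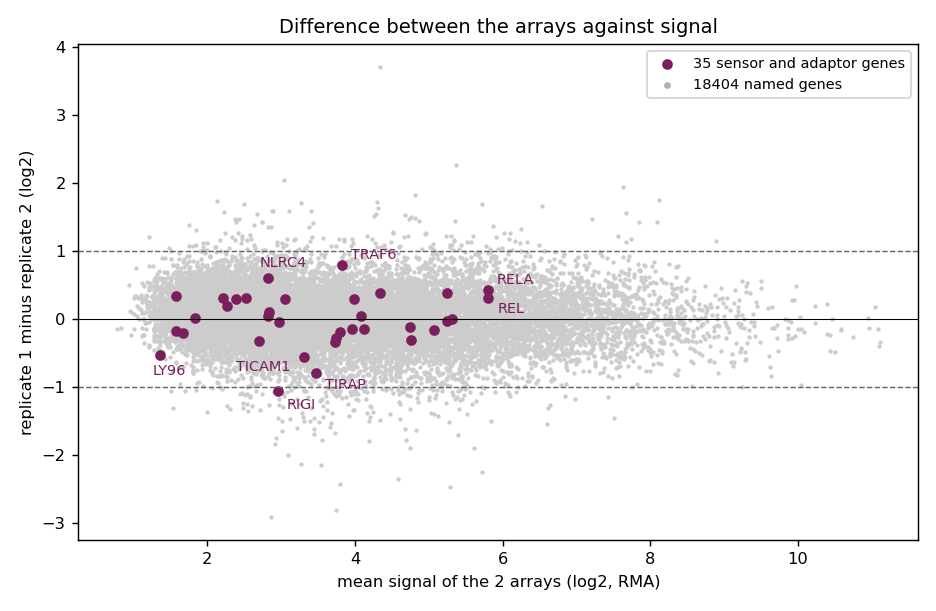
Replicate 1 minus replicate 2 difference of the log2 RMA signal (y axis) against the mean signal of the 2 arrays (x axis) for the 18404 named genes (grey) and the 35 sensor and adaptor genes (purple). Dashed lines mark a difference of 1 in either direction, and RIGI at -1.06 is the purple point beyond them.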

How the data were processed

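Total RNA of HL-60 cells was amplified from 200 ng, biotin-labelled and hybridised to Affymetrix Human Gene 1.0 ST arrays, per the labels' protocols. For each probe set the authors deposited a log2 signal from RMA, per the submitters' processing notes, a method that corrects background, equalizes the arrays by quantiles and summarises the probes of a set. The software that ran it was not given in the sources used here. Base 2, the base RMA uses, was assumed. Because RMA equalizes distributions, a change in total RNA would be hidden, and without scanner files detection and scan batches were not examined.

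Of 32321 probe sets, 19158 carried 1 gene symbol, 1388 several and 11775 were not listed in the platform annotation. Symbols were updated through Entrez IDs (19128 found in the RefSeq table, GRCh38.p14), giving 18404 genes, with probe sets averaged for the 637 genes that had several. The members and gene lists were chosen with earlier results of these data known, so counts are descriptions. The genes named are all measured members and, of each other list, the 2 highest, the lowest, genes above the second threshold and some fixed genes. Some further genes, such as those that differed most between the arrays, were named after their values were seen. Alternatives were quantile normalization, a loess trend, the highest probe set, other thresholds, each array alone and a filter on dim genes, and other promoter rules added after seeing the data. The count of differences over 1 and the loess and quantile steps were tested on simulated data. The olfactory threshold was checked there too, but the share passing it is set by its definition. Annotation, gene lists, the second threshold, promoter classes and motif searches were not tested in this way. Python 3.11.15, numpy 2.4.6, pandas 2.3.3, statsmodels 0.14.6 and matplotlib 3.10.9 were used.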

Additional observations from a re-analysis of the deposited data

Results flagged for a closer look

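A signal above the olfactory threshold appeared in a probe set outside the counts above. It is annotated to TICAM2, TMED7 and their read-through transcript together and read 3.82 on replicate 1 and 3.67 on replicate 2 (mean 3.75), so it cannot be assigned to TICAM2, the adaptor of TLR4. The probe set annotated to NLRP1 and 1 other symbol read 2.28 and 1.94, below the threshold.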

How the results depend on the processing

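No paired analysis was possible because both arrays belong to 1 group. The count of 20 members above background stayed at 20 after quantile normalization, after loess and with the highest probe set. Each member has 1 probe set, so the last of these left member values unchanged, and RMA had already equalized the arrays by quantiles. The count fell to 14 with the olfactory threshold moved to the 99th percentile (40.0% of all genes passed there). It was 21 to 22 with 1 array left out. With the second background set as threshold 2 members remained above background (RELA and REL), which are also the 2 CpG-rich members above it; by role the counts were then 2 for the NF-kB group and 0 for each of the other 5 groups, or 0 sensors and 2 signalling genes. Under that threshold the pathway counts were 2 for the accessory proteins, 3 for TAK1 and IKK signalling, 0 for the NF-kB inhibitors, 1 for the NF-kB targets, 1 for the inflammasome partners, 4 for the cGAS-STING and RIG-I list and 1 for the interferon list, because the threshold is higher. Without replicate 1 or replicate 2, members above the second threshold numbered 3 to 4, nucleic acid sensors above background 1 to 2, the higher count without replicate 1, and NF-kB targets 5 each time. Among members that passed on 1 array or both the median level was 3.99, because the dim genes were left out. Of the 19 CpG-rich members, 15 were above background; the counts were 14 of 18 where every window had to be CpG-rich and 13 of 17 at a ratio of at least 0.75. Of 286 recomputed values, 264 moved by at most 1.5 times (counts) or by less than the SD per array (levels and differences). Part of this was fixed in advance. With 1 probe set each, no member level or difference could change under the highest probe set, and loess keeps each mean level. Counts that moved by the full 1.5 times were those of the sensors (6 without replicate 1, in place of 4), the Toll-like receptor group (3 without replicate 1, in place of 2) and, without replicate 2, the NOD-like receptor group and the members above the second threshold (3 in place of 2 for each). RIGI, the 1 member with a difference over 1, kept its sign after quantile normalization and after loess.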

Other observations

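Markers of dendritic cells and B cells, which use TLR7 and TLR9, were measured as well. Of 6 dendritic cell markers 1 was above the olfactory threshold, the transcription factor gene TCF4 (5.57 ± 0.19), which exceeded the second threshold too and is also used by other cells. FCER1A (2.35 on both arrays) followed and CLEC9A was the lowest (1.64 ± 0.12). Of 5 B cell markers 4 passed, where 55.8% of all genes did, and none of them exceeded the second threshold. CD79B read 3.26 ± 0.10, BANK1 3.22 ± 0.07 and MS4A1, the lowest, 1.93 ± 0.10.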
